A study of Mus musculus with 27 samples.

Results

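The CCl4 effect was examined in livers of mice that received lipid nanoparticles with a luciferase-targeting siRNA (siLuc-LNP), the non-targeting control of a study of hyaluronan synthase 2 (HAS2). The libraries were chosen by their labels as CCl4 + siLuc-LNP (4 mice) and siLuc-LNP (3 mice), 7 of 27 libraries in the series, and no measured value entered the choice. All mice were female Balb/c, 8 weeks old at purchase. CCl4 + siLuc-LNP mice received intraperitoneal CCl4 over 2 weeks, and siLuc-LNP mice received intraperitoneal olive oil. Both groups carried the particle: it was given through the tail vein 2 times a week, starting 2 days before the first CCl4 injection, at 1 mg/kg siRNA and then at 0.5 mg/kg. Neither group received a HAS2-targeting siRNA. The groups used beside them were CCl4 without a particle (2 mice), control mice with olive oil and a tail vein injection of PBS (4 mice), CCl4 + siHAS2-LNP (4 mice) and siHAS2-LNP with olive oil (3 mice). Each library was made from whole liver RNA, so a gene can be higher because more cells of a type are present or because each cell holds more of its RNA, and these cannot be told apart.

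CCl4 is converted to a reactive radical by the cytochrome P450 enzyme CYP2E1, which hepatocytes around the central vein make, and those hepatocytes die first. Macrophages clear the dead cells, hepatic stellate cells turn into matrix-producing cells that lay down fibrillar collagen, and surviving hepatocytes divide to replace the loss. A non-targeting particle group shows this injury response in mice that carry the same delivery vehicle as the mice with the active siRNA.

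The libraries held between 18194261 and 25641808 counts. 14114 genes had a mean of at least 10 counts over all 27 libraries and entered one edgeR quasi-likelihood fit, whose p-values were adjusted over all of them (Benjamini-Hochberg). Levels are given as CPM (a library's counts rescaled to a common total) scaled by TMM, and differences as log2 fold changes with their standard error (SE). 3 libraries were looked at more closely. In CCl4 + siLuc-LNP mouse 3, the ribosomal RNA gene Rn18s-rs5 took 15.0% of all counts, against 0.0534% to 0.353% in the other 6 livers, and Lars2 stood at 20900 CPM against 88.5 to 437. CCl4 + siLuc-LNP mouse 4 had the lowest mean rank correlation with its own group (0.961, against 0.967 to 0.976 in mice 1 to 3). Its correlation was 0.978 with mouse 1, 0.959 with mouse 2 and 0.946 with mouse 3. siLuc-LNP mouse 1 was the lowest of its group (0.968, against 0.979 and 0.978). Some mouse of each group must be lowest. Has2 itself could not be tested: 1 of the 7 livers held a single read, and 2 of the 27 libraries held any.

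Under siLuc-LNP, CCl4 raised 1841 genes and lowered 1577 of 14114 tested (adjusted p under 0.05). This is 13% of tested genes higher, 11.2% lower and 24.2% in either direction. Cell division genes, collagens, macrophage genes of scar tissue and fetal liver genes were higher. Genes of pericentral hepatocytes, cytochrome P450s, sulfotransferases and major urinary proteins were lower. The median log2 fold change over all tested genes was -0.03. Without siLuc-LNP mouse 1 and CCl4 + siLuc-LNP mouse 4, 1937 genes passed, and 1504 did when the other 6 groups were left out of the fit.

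**Figure D1:**
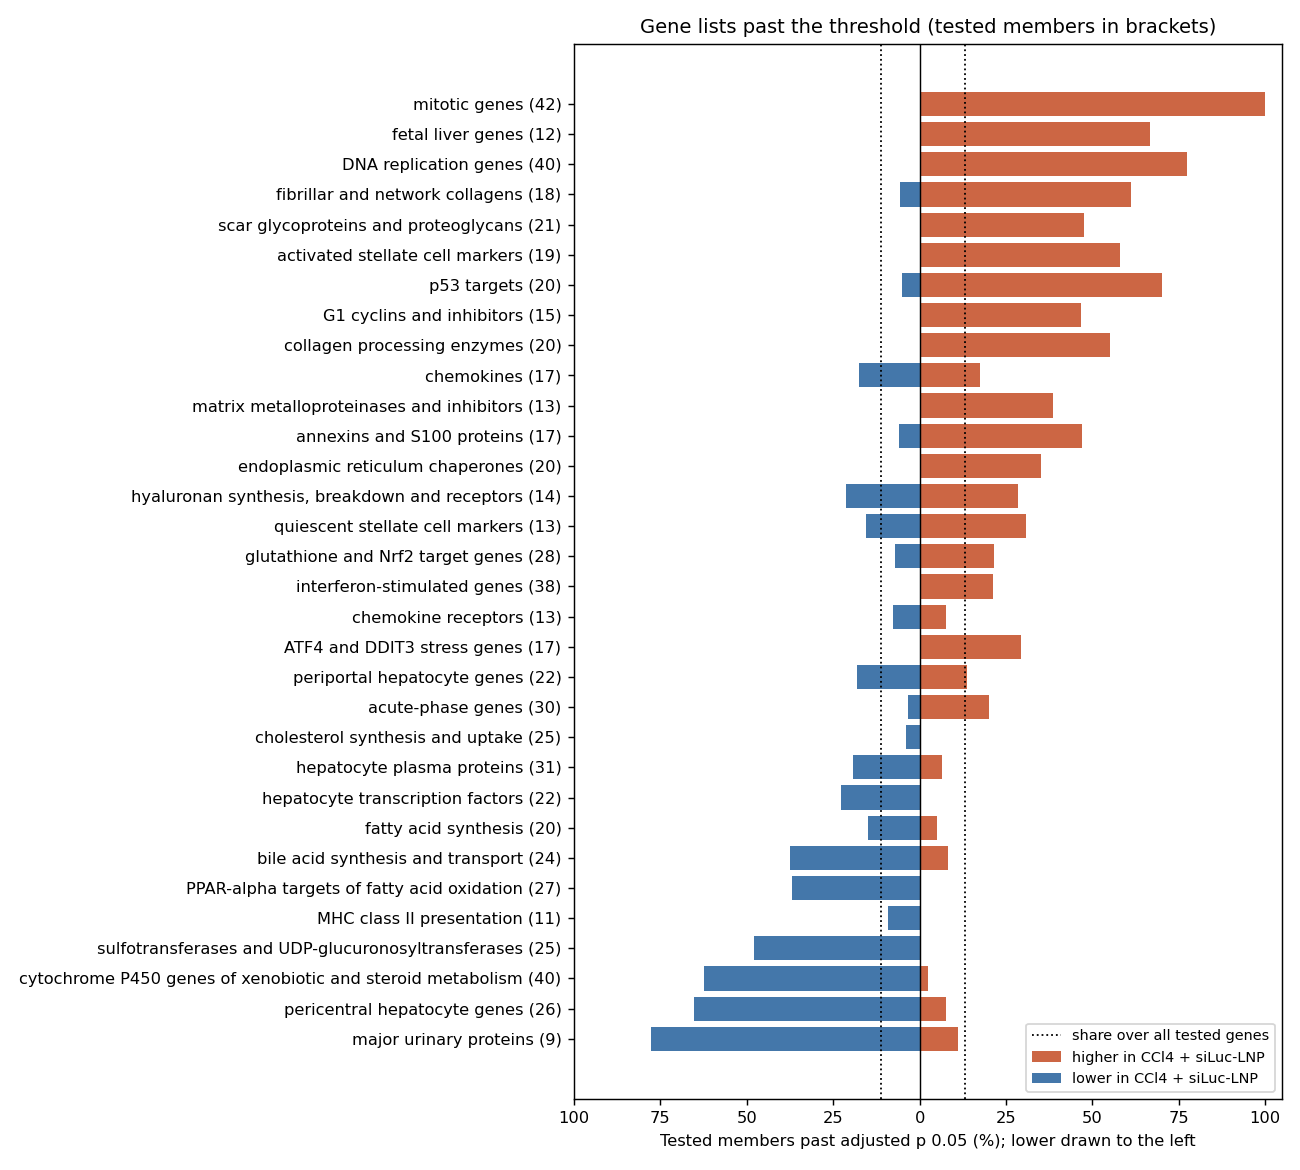
Share of the tested members of 32 gene lists that passed adjusted p 0.05, with members higher in CCl4 + siLuc-LNP drawn to the right and members lower drawn to the left, in percent. The dotted lines mark the shares over all tested genes, 13% higher and 11.2% lower, and the mitotic list reaches 100% to the right while the pericentral list reaches 65.4% to the left.

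Many matrix genes of scar tissue rose. Of 20 fibrillar and network collagens, 18 were tested, 11 were higher and 1 was lower, with a median log2 fold change of 1.2. The summed level of the list overlapped between the groups. It was 1020, 1530 and 1840 CPM in siLuc-LNP mice and 2100, 1810, 1440 and 1780 CPM in CCl4 + siLuc-LNP mice. Col1a1 (ENSMUSG00000001506, GRCm39 chr11:94827050-94843868), the main chain of type I collagen, stood at 5.72, 9.23 and 15.7 CPM in the siLuc-LNP mice and at 277, 95.4, 74.98 and 162 CPM in CCl4 + siLuc-LNP mice 1 to 4. The groups did not overlap, and the mean was 10.2 ± 5.06 CPM (SD, n = 3) against 152 ± 91.0 CPM (SD, n = 4). Its log2 fold change was 3.89 (SE 0.568, edgeR adjusted p = 1.9e-05). Col3a1, the type III chain, was at 32.8 to 61.7 CPM in siLuc-LNP mice and at 121 to 420 CPM after CCl4, and Col5a2 rose by a log2 fold change of 2.84. Col27a1, a cartilage-type fibrillar collagen, was the member that fell, from 15.4 to 19.6 CPM to 4.16 to 5.76 CPM. In both Col1a1 and Col3a1 mouse 1 was highest and mouse 3 lowest of the CCl4-injected mice.

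Genes that process collagen moved with the chains. Of 22 collagen processing enzymes 20 were tested, 11 were higher and 0 were lower, with a median of 0.76. Lox, the lysyl oxidase that crosslinks collagen, was at 0.172, 0.513 and 0.220 CPM without CCl4 and at 11.7, 3.36, 1.08 and 7.73 CPM with it (log2 fold change 4.31, SE 0.807). Loxl2, another crosslinking oxidase, rose by 2.35, and Fkbp10, a chaperone of procollagen, by 1.66. Of 22 scar glycoproteins and proteoglycans 21 were tested, 10 were higher and 0 were lower. They include the collagen-binding proteoglycan lumican (Lum), at 8.47 to 10.1 CPM without CCl4 and 20.8 to 58.5 CPM with it, and Fstl1, a secreted glycoprotein, with a log2 fold change of 1.90.

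Markers of activated stellate cells were higher in 11 of 19 tested members (20 in the list) and lower in 0. Timp1, which inhibits matrix metalloproteinases, rose from 0.132 to 0.399 CPM to 3.51 to 4.56 CPM, and Lgals1, a galectin, from 8.20 to 12.3 CPM to 56.2 to 100 CPM. Acta2, the smooth muscle actin of myofibroblasts, did not pass. It stood at 0.286, 4.56 and 0.703 CPM in siLuc-LNP mice and at 12.7, 4.398, 5.82 and 11.2 CPM after CCl4, so siLuc-LNP mouse 2 lay above CCl4 + siLuc-LNP mouse 2 (log2 fold change 2.23, edgeR adjusted p = 0.0632). It passed without siLuc-LNP mouse 2, without CCl4 + siLuc-LNP mouse 2 and with no low-count filter. Of 13 markers of quiescent stellate cells 4 were higher and 2 were lower (30.8% and 15.4%, against 13% and 11.2% over all tested genes). Egr2, a zinc finger transcription factor, rose by 2.62 (edgeR adjusted p = 0.00505), with 0.114 to 0.176 CPM without CCl4 and 0.193 to 2.19 CPM with it. It did not pass with limma-voom and sample weights or with the other groups left out of the fit. Jazf1 had overlapping groups and an adjusted p of 0.245 in the edgeR fit.

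The metalloproteinases and their inhibitors were higher in 5 of 13 tested members (18 in the list) and lower in 0. The macrophage elastase Mmp12 was at 0.286, 0.228 and 0.176 CPM without CCl4 and at 64.1, 8.91, 3.24 and 66.8 CPM with it, a log2 fold change of 7.28 (SE 1.03). Its level differed among the CCl4-injected mice themselves, with mice 1 and 4 far above mice 2 and 3. Of the 19 hyaluronan genes, the 3 synthases did not reach the count minimum, and 14 genes were tested. 4 were higher, among them Hmmr, a hyaluronan receptor that also serves the mitotic spindle (log2 fold change 5.02). 3 were lower, among them Stab2, the endothelial receptor that clears hyaluronan (-0.84), and Itih1, a heavy chain that binds it (-0.74).

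**Figure D2:**
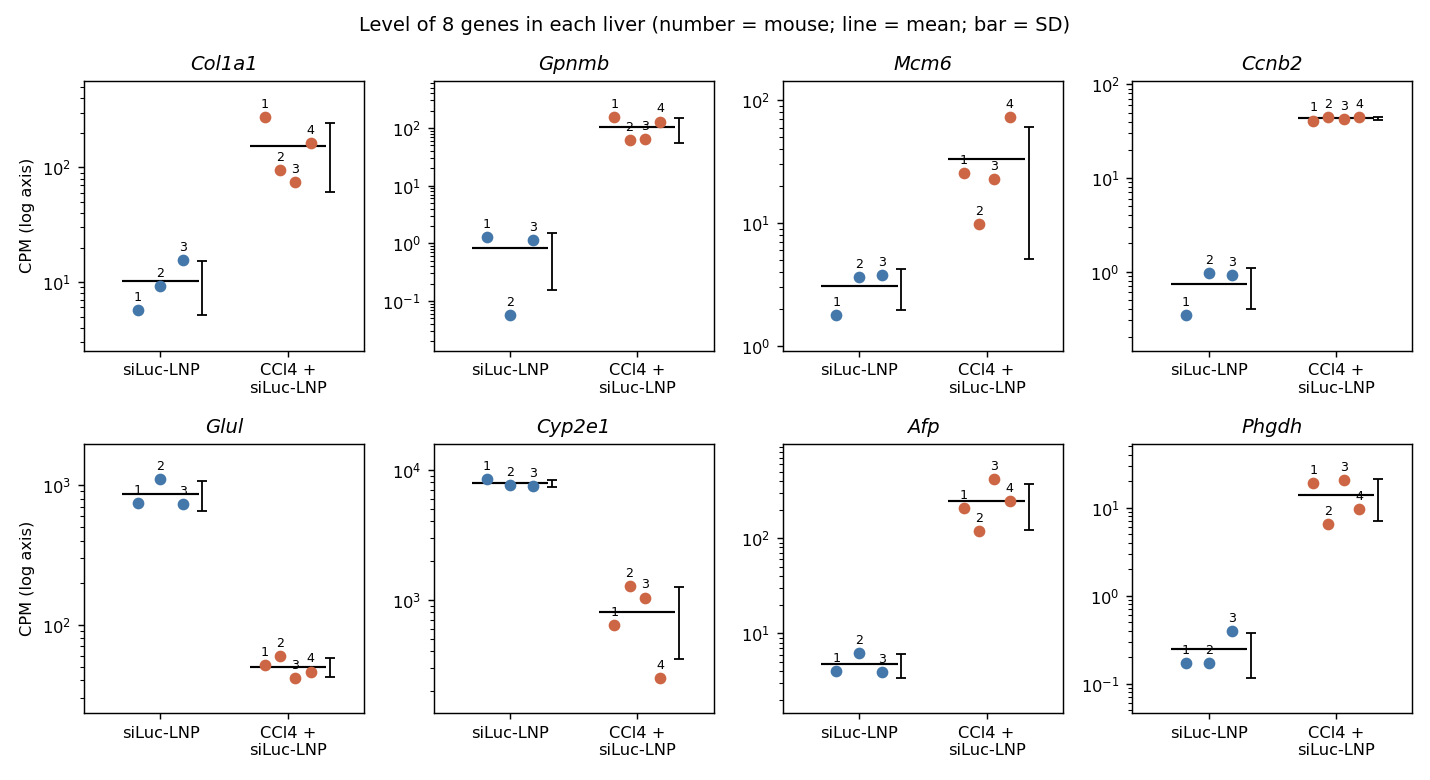
CPM on a log axis of 8 genes in each of the 3 siLuc-LNP and 4 CCl4 + siLuc-LNP livers, with the mouse number at each point, the mean as a line and the SD as a bar. In each panel the groups do not overlap: Glul and Cyp2e1 are lower after CCl4, and the other 6 genes are higher.

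Of the 32 gene lists, the mitotic genes had the largest share of tested members higher. All 42 mitotic genes were tested, 42 were higher, and their median log2 fold change was 3.93. The count was 42 with each of the 7 mice left out in turn. Ccnb2 (ENSMUSG00000032218, GRCm39 chr9:70314966-70328874), the cyclin B2 that drives entry into mitosis, was at 0.343, 0.968 and 0.923 CPM in siLuc-LNP mice and at 41.1, 44.6, 43.0 and 44.7 CPM after CCl4. The CCl4-injected mice differed little from each other in Ccnb2, and its log2 fold change was 5.83 (SE 0.497, edgeR adjusted p = 9.38e-09). Birc5, the survivin of the chromosomal passenger complex, rose by 4.70, and Cdkn3, a phosphatase that acts on CDK1 and CDK2, by 6.32. Mki67, the proliferation antigen, was at 7.32 to 8.39 CPM without CCl4 and at 112, 63.3, 82.6 and 207 CPM with it.

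DNA replication genes were higher in 31 of 40 members, all tested, and lower in 0, with a median of 1.6. Mcm6, a subunit of the replicative helicase, was at 1.77, 3.65 and 3.78 CPM without CCl4 and at 25.6, 9.76, 22.9 and 73.5 CPM with it. Rrm2, the ribonucleotide reductase subunit that limits dNTP supply, was at 22.5, 7.29, 17.3 and 58.0 CPM in the CCl4-injected mice and at most 2.91 CPM in the others. In both genes mouse 4 was highest and mouse 2 lowest. The replication count fell to 19 of 40 without CCl4 + siLuc-LNP mouse 4 (median 1.02) and to 15 without that mouse and siLuc-LNP mouse 1. Of the 16 G1 cyclins and cell cycle inhibitors 15 were tested and 7 were higher, among them Cdkn3 and Cdkn1a, the p21 inhibitor (log2 fold change 2.45). Ccnd1, cyclin D1, had overlapping groups, with 15.1 to 78.3 CPM without CCl4 and 34.3 to 117 CPM with it. Of the 20 p53 targets, 14 were higher and 1 was lower. Phlda3, which restrains AKT signalling, rose from 0.911 to 1.71 CPM to 13.5 to 28.8 CPM, and Tnfrsf10b, a death receptor, by a log2 fold change of 3.58.

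The promoters of the mitotic and the replication genes differ in the short motifs they hold, and the stretches around these motifs are shown for the 5 genes of each list with the lowest p among those that have one and whose sequence could be shown, which left 22 mitotic and 16 replication genes to choose from. The windows ran from 250 bases before to 50 bases from the start of the canonical transcript (GENCODE, GRCm39). The cell cycle homology region (CHR, searched as TTTGAA or TTCGAA on both strands) was in 24 of 42 mitotic promoters (57.1%), 4 of 40 replication promoters (10%) and 18.8% of 21770 protein-coding promoters. The E2F motif (searched as TTTGGCGC, TTTCCCGC, TTTGCCGC or TTTCGCGC on both strands) was in 16 of 40 replication promoters (40.0%), 2 of 42 mitotic promoters (4.76%) and 2.82% of all. CCAAT was in 66.7% of mitotic, 62.5% of replication and 39.9% of all promoters. These shares describe letters in a window and were not tested. Each line gives 30 bases, 5′ to 3′ on the gene's strand, with the motif in capitals, first CHR in 5 mitotic genes and then E2F in 5 replication genes.
Ccnb2 (chr9:70328825-70328854, minus strand): atagtgcgtcagcggcgcggtaTTTGAAtc
Racgap1 (chr15:99549515-99549544, minus strand): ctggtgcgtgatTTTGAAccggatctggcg
Plk1 (chr7:121758666-121758695, plus strand): ttgtaacgttcccagcgccgcgTTTGAAtt
Cenpf (chr1:189420264-189420293, minus strand): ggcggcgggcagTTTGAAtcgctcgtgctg
Cdc20 (chr4:118294809-118294838, minus strand): tcgatgtgacctTTCAAAgattcccagatg
Mcm6 (chr1:128287471-128287500, minus strand): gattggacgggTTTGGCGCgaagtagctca
Pole (chr5:110434192-110434221, plus strand): gagagcacgtggagagcGCGCCAAAttctc
Mcm5 (chr8:75835977-75836006, plus strand): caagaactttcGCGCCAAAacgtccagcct
E2f1 (chr2:154411790-154411819, minus strand): gtggctctttcGCGGCAAAaaggatttggc
E2f7 (chr10:110581091-110581120, plus strand): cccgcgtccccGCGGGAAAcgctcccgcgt

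Pericentral hepatocyte genes fell. All 26 were tested, 17 were lower and 2 were higher, with a median of -1.14. Glul (ENSMUSG00000026473, GRCm39 chr1:153775690-153785469), glutamine synthetase and the classical marker of the last hepatocytes before the central vein, was at 741, 1098 and 736 CPM in siLuc-LNP mice and at 51.8, 59.8, 41.7 and 46.2 CPM after CCl4. The mean changed from 858 ± 208 CPM (SD, n = 3) to 49.8 ± 7.80 CPM (SD, n = 4), and the log2 fold change was -4.11 (SE 0.227, edgeR adjusted p = 4.19e-12). Oat, ornithine aminotransferase of the same cells, fell by 4.29 on the log2 scale, and the glutamate transporter Slc1a2 from 72.7 to 104 CPM to 0.104 to 0.463 CPM. Cyp2e1, the enzyme that activates CCl4, was at 8414, 7572 and 7532 CPM without CCl4 and at 641, 1283, 1040 and 251 CPM with it (log2 fold change -3.29, SE 0.368). Mouse 4 had the lowest Cyp2e1 and the highest Mcm6. The nuclear receptor CAR (Nr1i3) fell by 1.88 on the log2 scale, 1 of 5 hepatocyte transcription factors that were lower of 22 tested (0 higher).

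Periportal genes did not move one way. Of 22 tested, 3 were higher and 4 were lower, with a median of 0.00. These are 13.6% and 18.2%, against 13% higher and 11.2% lower over all tested genes. Cps1, the first enzyme of the urea cycle, was at 1897 to 2517 CPM without CCl4 and at 2731 to 6143 CPM with it. Pck1, of gluconeogenesis, had a log2 fold change of -2.005 with overlapping groups, since CCl4 + siLuc-LNP mouse 3 stood at 859 CPM and siLuc-LNP mouse 1 at 692 CPM. It did not pass when the other groups were left out of the fit.

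Of 40 cytochrome P450 genes of xenobiotic and steroid metabolism, all tested, 25 were lower and 1 was higher, with a median of -0.97. Cyp3a16 was at 97.7, 420 and 168 CPM in siLuc-LNP mice and at 0.180 to 0.347 CPM after CCl4. Cyp3a41a, with at most 2 reads in any CCl4-injected mouse, was at least 436-fold lower when these mice are set to a floor of 3 counts per library, and Cyp3a41b at least 286-fold lower. The Cyp3a and Mup genes have near-identical copies, and reads that map to several places were left out of the counts, so the values of single members are uncertain. Cyp2c38 fell by 4.94 and Cyp2c69 by 5.65 on the log2 scale. Of 29 sulfotransferases and UDP-glucuronosyltransferases 25 were tested, 12 were lower and 0 were higher, with Sult2a3 at 38.9 to 57.3 CPM without CCl4 and 0.139 to 1.39 CPM with it. Sult3a1 was at least 44.7-fold lower on the same floor.

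Of 22 major urinary protein genes only 9 reached the count minimum, 7 of them were lower and 1 was higher. Mup18 had 0 reads in all 4 CCl4-injected livers and was at least 112-fold lower, and Mup13 was at least 22.6-fold lower. siLuc-LNP mouse 1 was far below the other siLuc-LNP mice in these genes: Mup9 was at 0.973 CPM there and at 90.5 and 23.9 CPM in mice 2 and 3, while the CCl4-injected mice were at 0.0600 to 0.617 CPM. With limma-voom and sample weights, Mup9, Mup13, Mup17, Mup18 and Sult3a1 did not pass. Mup3 had overlapping groups and lost its call in 6 of 15 alternatives.

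Lipid and bile acid genes fell in part. Of 24 tested bile acid genes (25 in the list) 9 were lower and 2 were higher, and Cyp7b1, which hydroxylates oxysterols, was at 19.03 to 28.8 CPM without CCl4 and 1.86 to 4.63 CPM with it. Of 27 tested PPAR-alpha targets (28 in the list) 10 were lower and 0 were higher, among them the fatty acid carrier Fabp1 (log2 fold change -2.01). Of 20 fatty acid synthesis genes 3 were lower and 1 was higher (15.0% and 5.0%, against 11.2% and 13% over all tested genes). Elovl3, an elongase, was at least 22.8-fold lower, and Scd2, a desaturase, rose from 6.38 to 8.75 CPM to 128, 24.2, 14.0 and 76.0 CPM. Of 25 cholesterol synthesis genes 1 was lower, Tm7sf2, and 0 were higher, below the background shares. These genes varied within the groups: Hmgcs1 was at 154, 880 and 496 CPM in siLuc-LNP mice and at 587, 279, 65.2 and 648 CPM in CCl4 + siLuc-LNP mice, with siLuc-LNP mouse 1 and CCl4 + siLuc-LNP mouse 3 lowest.

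Genes of products that hepatocytes secrete passed in both directions, in part at shares below those over all tested genes (13% higher, 11.2% lower). Alb, serum albumin, was at 92700 to 130000 CPM without CCl4 and at 85510 to 115300 CPM with it, and its log2 fold change was -0.24 (SE 0.221, edgeR adjusted p = 0.464). Of 31 plasma protein genes 6 were lower (19.4%) and 2 were higher (6.45%). Apoa4, an apolipoprotein of triglyceride-rich particles, was at 149 to 176 CPM without CCl4 and 835 to 2310 CPM with it. Of 30 acute-phase genes 6 were higher (20.0%) and 1 was lower (3.33%). Saa3, a serum amyloid A that macrophages also make, was at 4.13 to 9.06 CPM without CCl4 and at 31.2, 67.1, 9.61 and 21.1 CPM with it. The member that fell was Hamp, the iron hormone hepcidin, at 425 to 1195 CPM without CCl4 and 62.4 to 345 CPM with it, and it did not pass without siLuc-LNP mouse 1 and CCl4 + siLuc-LNP mouse 4 (edgeR adjusted p = 0.0625).

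Genes of the fetal liver rose. Of 16, 12 were tested, 8 were higher and 0 were lower, with a median of 3.11. Afp, alpha-fetoprotein, was at 4.06, 6.27 and 3.91 CPM in siLuc-LNP mice and at 207, 119, 414 and 248 CPM after CCl4 (log2 fold change 5.70, SE 0.505). H19, an imprinted noncoding RNA, rose by 5.39, Gpc3, a proteoglycan of fetal hepatocytes, by 4.58 and Ly6d by 6.02. Dlk1, a membrane protein of hepatoblasts, had 0 reads in the siLuc-LNP livers and was at least 8.91-fold higher. The glutathione and Nrf2 list was higher in 6 of 28 tested members (30 in the list) and lower in 2, with Gpx3 at 3.76 to 5.09 CPM without CCl4 and 13.2 to 21.6 CPM with it, and Gsta1, which conjugates glutathione, with a log2 fold change of 4.56.

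Of 18 stress genes under ATF4 and DDIT3, 17 were tested and 5 were higher, while the median of the list was 0.09. The members that rose include enzymes of serine and asparagine synthesis. Phgdh, the first enzyme of serine synthesis, was at 0.172, 0.171 and 0.396 CPM without CCl4 and at 18.9, 6.56, 20.9 and 9.77 CPM with it, Psat1 rose by 5.001, and Asns by 3.84. Annexins and S100 proteins were higher in 8 of 17 tested members (19 in the list) and lower in 1, among them Anxa2 (12.1 to 16.9 CPM against 103 to 212 CPM) and S100a11 (log2 fold change 3.42). Of 20 endoplasmic reticulum chaperones 7 were higher and 0 were lower, and without siLuc-LNP mouse 1 and CCl4 + siLuc-LNP mouse 4 3 were.

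The 12 largest rises were mostly genes at or near 0 in the siLuc-LNP livers, so they are given against the floor of 3 counts per library. Dlk1 and Mmp12 are also among them. Cdh17, an intestinal cadherin, was at 26.1, 10.3, 29.4 and 29.9 CPM after CCl4 and at least 151-fold higher. Spink1, a trypsin inhibitor, was at least 30.4-fold higher, Cyp21a1, a steroid 21-hydroxylase, at least 22.0-fold, Mep1a, a meprin protease, at least 17.9-fold, Inava at least 14.9-fold, Krt20, a keratin of gut epithelium, at least 14.3-fold and Glp2r at least 12.1-fold. Lrtm2 was at least 25.6-fold higher, with 1.10, 4.82, 9.90 and 0.347 CPM in the CCl4-injected mice. Tpsab1, a mast cell tryptase, was at least 11.6-fold higher and Usp43 at least 9.45-fold.

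Macrophage markers split by type. Of 12 markers of scar-associated macrophages 10 were higher and 1, the apolipoprotein Apoe, was lower, with a median of 2.28. Their summed level went the other way, at 20800 to 33900 CPM without CCl4 and 8680 to 22400 CPM with it. Most of that sum was Apoe, at 20280 to 33350 CPM and 7134 to 20980 CPM. Gpnmb, a glycoprotein of lipid-laden macrophages, was at 1.26, 0.0570 and 1.14 CPM in siLuc-LNP mice and at 156, 61.7, 64.9 and 129 CPM after CCl4 (log2 fold change 6.93, SE 0.709). Spp1, osteopontin, which bile duct cells also make, was at 40.5 to 57.0 CPM without CCl4 and at 677, 234, 277 and 267 CPM with it. Cd63, a tetraspanin of lysosomes, rose by 3.37. Of 12 monocyte-derived macrophage markers 3 were higher and 0 were lower, and Cd68 lost its call without siLuc-LNP mouse 1 and without siLuc-LNP mouse 2. Of 12 Kupffer cell markers 0 were higher and 4 were lower, among them Clec4f, at 92.6 to 186 CPM without CCl4 and 38.0 to 68.0 CPM with it, and Timd4, a receptor for dying cells, at 10.3 to 14.6 CPM and 3.96 to 6.21 CPM.

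Other cell types were read by their markers in the same livers, and the part of cell numbers in the results above was not tested. The shares over all tested genes were 13% higher and 11.2% lower. The smooth muscle list (14.3% higher) and the vascular list (16.7% higher) lay near the first of these. Cholangiocyte markers were higher in 7 of 13 tested members (16 in the list), and their summed level was 107 to 129 CPM without CCl4 and 416 to 959 CPM with it. Cdh1, E-cadherin, which periportal hepatocytes also make, was at 10.1 to 20.3 CPM and 89.7 to 164 CPM. Stellate cell and fibroblast markers summed to 312 to 494 CPM without CCl4 and 593 to 1190 CPM with it, with 5 of 12 higher and 1 lower. The sum includes Col1a1 (log2 fold change 3.89) and Col3a1 (2.45), which are also in the collagen list above. Lrat, Des, Pdgfra, Pdgfrb, Dcn and Thy1 did not pass, and Colec11 was the lower member. Sinusoidal endothelial markers were higher in 5 of 15 and lower in 1, and vascular markers higher in 2 of 12. B and plasma cell markers were lower in 5 of 10 tested members, but in 0 without siLuc-LNP mouse 1 and CCl4 + siLuc-LNP mouse 4, and Ighm lost its call in 9 of 15 alternatives. Their summed level overlapped, at 184 to 208 CPM without CCl4 and 154 to 232 CPM with it. T and NK cell markers were lower in 3 of 11, while Itgax, an integrin of dendritic cells and macrophages, rose by 2.59. Of 6 tested dendritic cell markers (12 in the list) 1 was higher and 3 were lower, of 7 smooth muscle markers 1 was higher, and of 8 mesothelial markers 2 were. Erythroid and platelet markers were lower in 2 of 9 tested members and summed to 133 to 695 CPM without CCl4 and 96.8 to 279 CPM with it. Of 9 tested neutrophil markers 0 passed in either direction by edgeR and 1 by DESeq2. Their summed level was 104 CPM in siLuc-LNP mouse 1, 19.4 and 19.9 CPM in siLuc-LNP mice 2 and 3 and 31.4 to 41.5 CPM after CCl4. Hepatocyte markers summed to 123000 to 153000 CPM and 104000 to 148000 CPM, and of 12 pancreas and gut markers 5 had 0 reads in all 7 livers. The 2 pancreas and gut markers and the 1 adipocyte marker that were tested did not pass.

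Interferon-stimulated genes were higher in 8 of 38 members (21.1%, against 13% over all tested genes) and lower in 0. Rigi, a sensor of viral RNA, was at 27.3 to 31.9 CPM without CCl4 and at 41.3, 41.0, 41.1 and 69.3 CPM with it. Without siLuc-LNP mouse 1 and CCl4 + siLuc-LNP mouse 4 the count was 3, and Rigi did not pass. Chemokines were higher in 3 of 17 tested members (25 in the list) and lower in 3. This is 17.6% each way, near the 13% higher and 11.2% lower over all tested genes. Cxcl14 was at 0.114 to 0.396 CPM without CCl4 and 1.86 to 8.89 CPM with it. Of 13 tested chemokine receptors 1 was higher, Cxcr4 (log2 fold change 1.61), and 1 was lower, 7.69% each way and below the shares over all tested genes. Of 11 tested genes of MHC class II presentation 1 was lower (9.09%), also below the share over all tested genes.

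The CCl4-injected mice differed among themselves by list. As the mean of log2(CPM + 1) over a list minus the siLuc-LNP mean, collagens were at 1.56, 1.01, 0.64 and 1.17 in mice 1 to 4, and DNA replication genes at 1.07, 0.45, 0.86 and 1.97. The mouse with the highest collagen level was therefore not the mouse with the highest replication level. Pericentral genes were at -1.61, -1.31, -1.32 and -2.05, lowest in mouse 4. Cholesterol genes were at 0.24, 0.03, -1.26 and 0.58, and the siLuc-LNP mice spanned -1.03 to 0.67 in them.

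**Figure D3:**
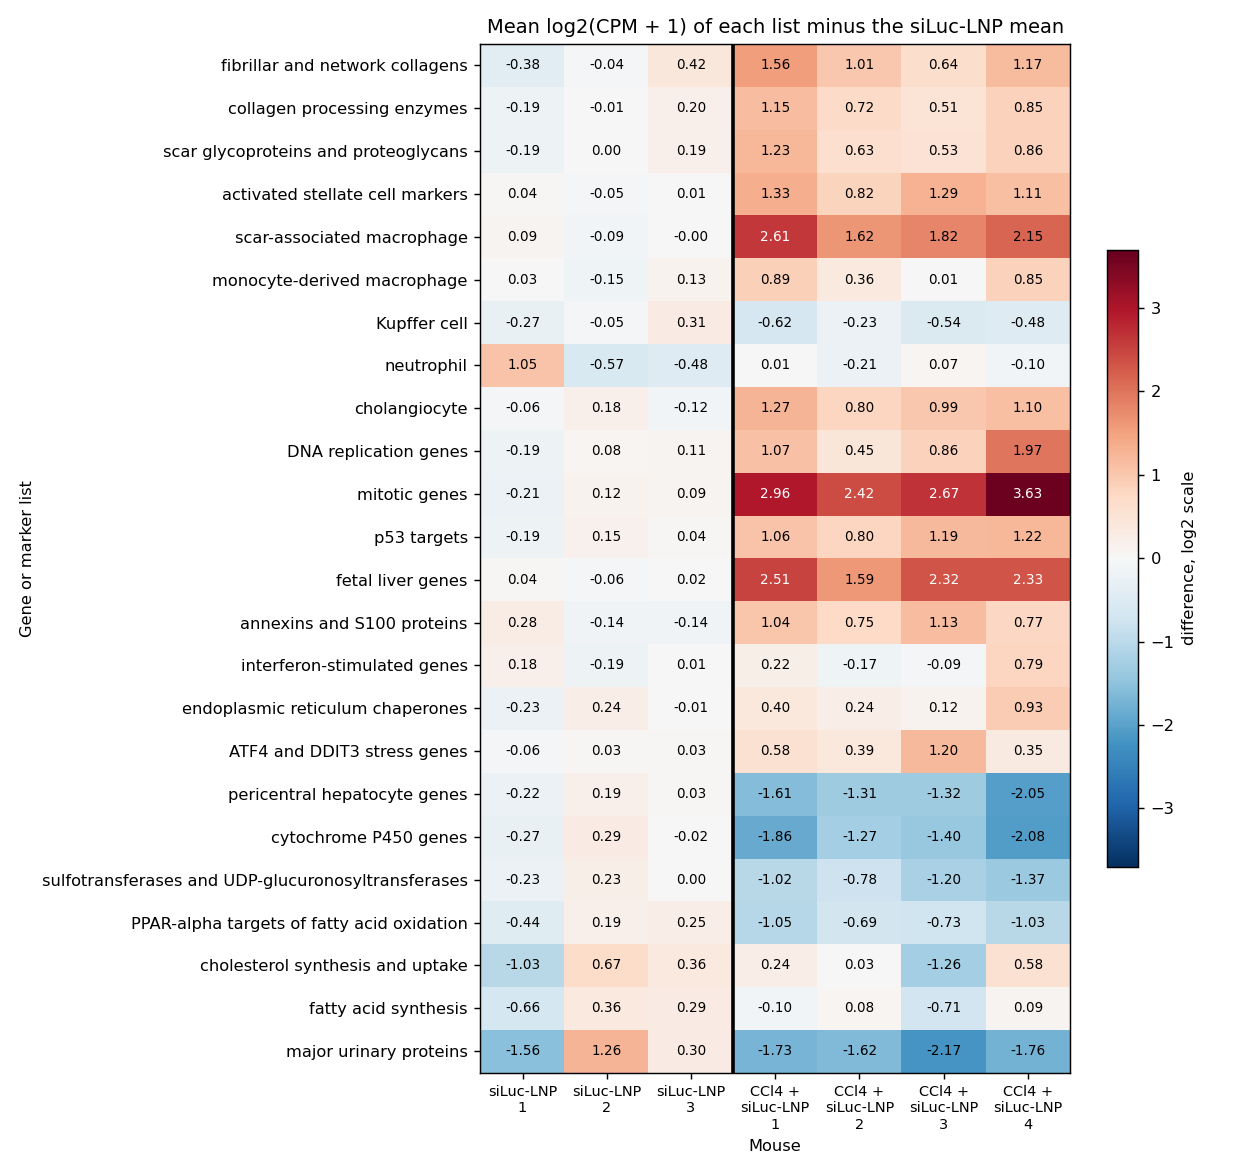
Mean log2(CPM + 1) of 24 gene and marker lists in each of the 7 livers, minus the siLuc-LNP mean, in color and as printed values. Mitotic genes are at 2.42 to 3.63 in the 4 CCl4 + siLuc-LNP mice, DNA replication genes are highest in mouse 4 at 1.97, and neutrophil markers are highest in siLuc-LNP mouse 1 at 1.05.

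The CCl4 effect under siLuc-LNP was set against the effect without a particle, CCl4 against control, with no mouse shared between the comparisons. Of the 1841 genes higher under siLuc-LNP, 98.0% had the same sign without a particle and 77.1% passed there in the same direction. For the 1577 lower genes these shares were 96.1% and 67.2%. Over all 14114 tested genes, 2537 passed as higher and 2268 as lower without a particle. The median log2 fold change of the 1841 genes was 1.2 under siLuc-LNP and 1.23 without a particle, but these genes were chosen on the first value. Across all tested genes, which are not independent, the correlation of the log2 fold changes was 0.851. Under siHAS2-LNP, 95.4% of the higher genes had the same sign and 40.4% passed in the same direction, and 86.4% and 28.0% of the lower genes did. Their median log2 fold changes there were 0.70 and -0.38, and the correlation was 0.777. Over all 14114 tested genes, 1093 passed as higher and 719 as lower under siHAS2-LNP. These are fewer than without a particle, so the shares that passed are not directly comparable.

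The difference between these effects passed for 1 gene of 14114 (0.00709%), while 1411 had an unadjusted p under 0.05 and DESeq2 called 39. The gene was Rpa2, a subunit of the single-strand DNA binding complex of replication. It was at 10.5 to 12.2 CPM in siLuc-LNP mice and at 15.7, 9.76, 10.9 and 22.4 CPM after CCl4, and its log2 fold change was 0.39 under siLuc-LNP and 2.28 without a particle (difference -1.88, SE 0.315, edgeR adjusted p = 0.0452). The count was 0 with the replicate block, with filterByExpr, with the other groups left out of the fit and without any 1 of the 4 control mice, CCl4 mouse 2, siLuc-LNP mouse 1 or 3, or CCl4 + siLuc-LNP mouse 2 or 3. The replication genes had a median of 1.6 under siLuc-LNP and 2.95 without a particle, and all 40 had a difference below 0, but 0 of 40 passed, with 28 at an unadjusted p under 0.05. Mitotic genes had medians of 3.93 and 5.25, and collagens of 1.2 and 2.07, with 0 passing in either list.

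Of the single mice left out, CCl4 + siLuc-LNP mouse 4 moved this count most. Without CCl4 + siLuc-LNP mouse 4, 247 genes differed between the effects, 172 of them with a lower log2 fold change under siLuc-LNP (1.22% of tested genes). 22 of the 40 replication genes and 5 of the 42 mitotic genes were among those 172. With siLuc-LNP mouse 1 left out too, 248 genes passed, and 21 and 4 of these lists were among those lower. CCl4 + siLuc-LNP mouse 4 had the highest level of its group in both lists. It stood at 1.97 in replication genes (0.447 to 1.07 in the others) and at 3.63 in mitotic genes (2.42 to 2.96). Leaving it out lowers the siLuc-LNP effect in them, so these counts cannot show a weaker effect under siLuc-LNP. The CCl4 group without a particle has 2 mice, and without the first of them 19 genes passed.

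Against the CCl4 effect under siHAS2-LNP, 5 genes of 14114 passed (0.0354%), with 1612 at an unadjusted p under 0.05 and 67 called by DESeq2. The count was 2 with the replicate block and 0 by limma-voom and with the other groups left out of the fit. It was also 0 without siHAS2-LNP mouse 2 or 3, CCl4 + siHAS2-LNP mouse 2, 3 or 4, siLuc-LNP mouse 1 or 3, or CCl4 + siLuc-LNP mouse 1, and 1 without siHAS2-LNP mouse 1 or CCl4 + siLuc-LNP mouse 4. It was 9 without siLuc-LNP mouse 2, 25 without CCl4 + siHAS2-LNP mouse 1 and 26 without CCl4 + siLuc-LNP mouse 3. Smpdl3b, a lipid-modulating phosphodiesterase, was at 0.627 to 0.879 CPM in siLuc-LNP mice and at 6.83 to 12.2 CPM after CCl4, with a log2 fold change of 3.74 there and 1.58 under siHAS2-LNP (difference 2.16, SE 0.370, edgeR adjusted p = 0.0422). Cyb561, a transmembrane ferric reductase, had values of 2.77 and 0.59. Slc17a8, a vesicular glutamate transporter, had -1.84 and 0.48. AI480526 and Gm15635, named although the rule leaves out predicted genes, had -0.96 against 0.87 and -1.36 against 1.61. Collagens had a median of 1.2 under siLuc-LNP and 0.96 under siHAS2-LNP, replication genes 1.6 and 0.65, mitotic genes 3.93 and 2.68 and fetal liver genes 3.11 and 2.89, and no member of any of the 49 lists passed. Of the mitotic genes 41 of 42 had a difference above 0, with 21 at an unadjusted p under 0.05, and all 25 cholesterol synthesis genes did, with 8 at that p and medians of -0.17 under siLuc-LNP and -1.37 under siHAS2-LNP. The values for Col1a1 were 3.89 and 3.04 (difference 0.85, SE 0.705). The difference counts rest on groups of 2 to 4 mice and do not show that the effects are alike.

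**Figure D4:**
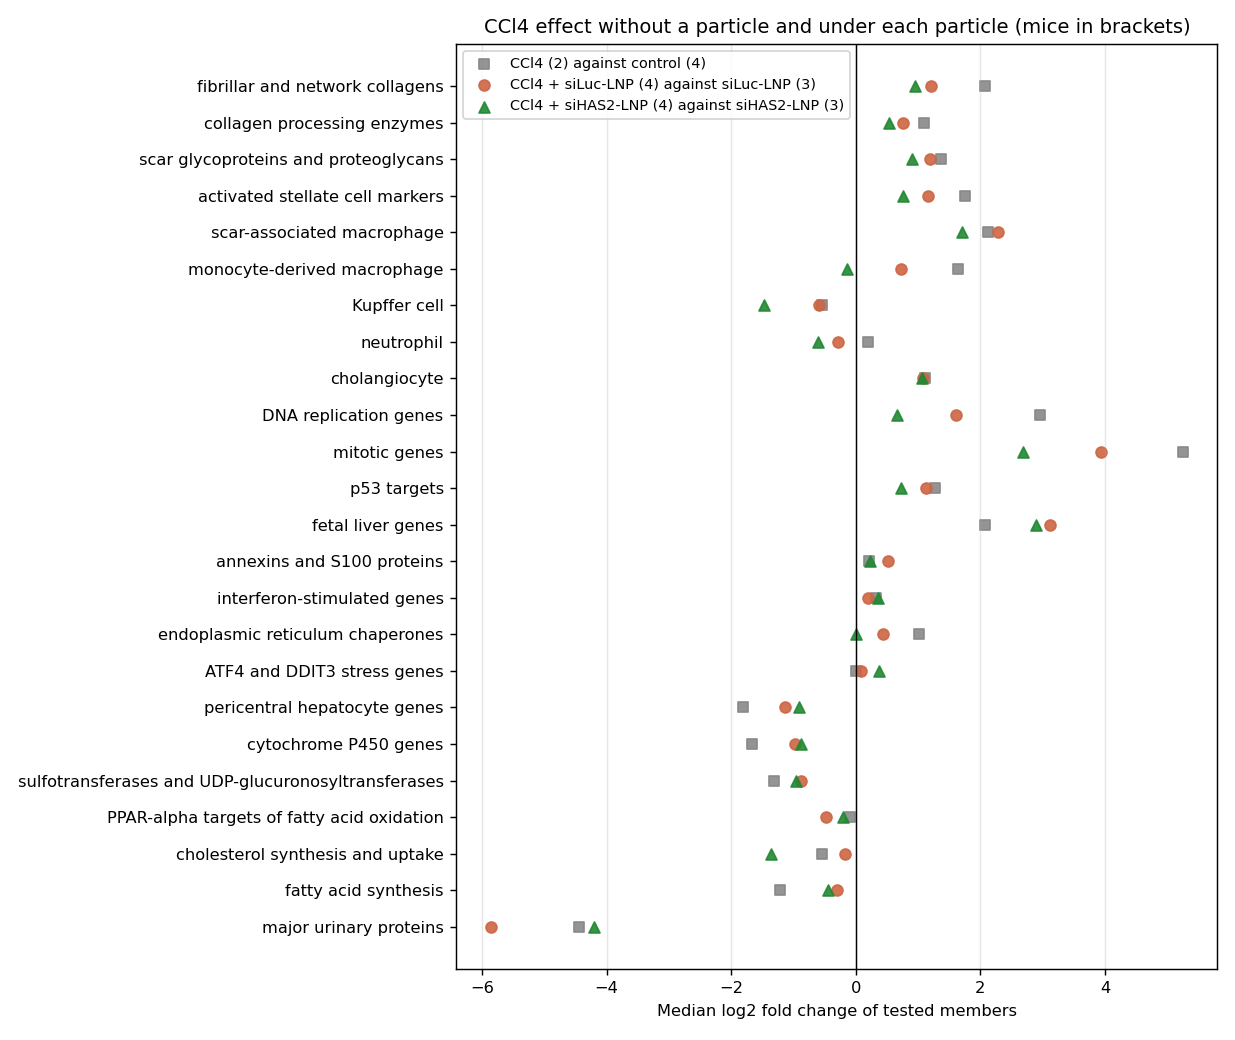
Median log2 fold change of the tested members of 24 lists for CCl4 against control (squares), CCl4 + siLuc-LNP against siLuc-LNP (circles) and CCl4 + siHAS2-LNP against siHAS2-LNP (triangles). Mitotic genes lie at 5.25, 3.93 and 2.68 and replication genes at 2.95, 1.6 and 0.65, while fetal liver genes lie at 2.08, 3.11 and 2.89.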

How the data were processed

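Libraries were made with the NEBNext Ultra II Directional kit from liver RNA and sequenced paired-end with reads of at least 85 bp on a NextSeq500. Per the labels and methods, the authors trimmed reads with Trimmomatic (0.39), aligned them with HISAT2 to GRCm39 and deposited raw counts per gene from featureCounts, with multi-mapping reads left out; the strand setting is not given in the sources used here. Of 55414 gene IDs, 54749 matched GENCODE. No column was left unmapped.

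The 14114 genes averaging 10 counts or more were fitted with edgeR 4.0.16 (TMM, quasi-likelihood) over all 27 libraries in 8 groups, and p-values were adjusted by Benjamini-Hochberg. The members and lists (32 gene lists, 17 marker lists) were chosen with earlier results of these data known. Genes named were taken from the 12 largest rises and falls past the threshold with groups that do not overlap and at least 1 CPM. The rule also names the 2 highest and 3 lowest-p members of each list. It adds up to 6 genes per direction of each difference, and 9 genes that the study turns on. Rn18s-rs5, Lars2 and a few others were named after their values were seen. Not every gene that the rule names is given here. Where a group had at most 3 counts in each library, folds were bounded with 3 counts per library, which covers counting error only. The labels number libraries of a group as replicates. The p-values set each difference against the spread between such libraries, estimated over all 8 groups together. DESeq2, limma-voom, other filters, a replicate block and leaving out mice were tried.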

Additional observations from a re-analysis of the deposited data

Results flagged for a closer look

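Among 160 sets of 4 CCl4 + siLuc-LNP values (named genes, lists and library measures), 14 had a lowest or highest mouse whose gap to the next was too wide by Dixon's test. Chance gives about 1 in 20 for sets that are independent and chosen beforehand. These sets overlap, some genes were named after their values were seen, and Rn18s-rs5 enters both as CPM and as its share of counts. The 14 flags therefore cannot be read as an excess over chance. In mouse 3, Rn18s-rs5 took 15.0% of counts and stood at 184000 CPM, and Lars2 stood at 20900 CPM. Both genes passed the test of CCl4 + siLuc-LNP against siLuc-LNP with overlapping groups, and neither passed without mouse 3, where the log2 fold change of Rn18s-rs5 was 0.03. Mouse 3 was also highest in Phlda3 (28.8 CPM) and Pck1 (859 CPM). Mouse 4 was highest in Rigi (69.3 CPM) and lowest in Cdkn3 (12 CPM, against 13.1 to 13.2 CPM in the others). Mouse 1 was highest in Spp1 (677 CPM), Serpina1c (654 CPM), S100a8 (10.6 CPM) and Jazf1 (1.92 CPM). Mouse 2 was highest in Mup17 (0.694 CPM). Cyp3a41a and Mup13 were at 0.0693 CPM in mouse 4, which is 2 reads, and at 0 in the others.

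The tests of a difference between CCl4 effects gave Rpa2 against mice without a particle (log2 difference -1.88), and Smpdl3b (2.16), Cyb561 (2.18), AI480526 (-1.83), Slc17a8 (-2.32) and Gm15635 (-2.97) against siHAS2-LNP. Their adjusted p-values in the edgeR fit were between 0.0422 and 0.0482.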

How the results depend on the processing

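For CCl4 + siLuc-LNP against siLuc-LNP (3418 genes), the count was 1504 with the other groups left out of the fit, 1644 with a further limit of 1 on the absolute log2 fold change, 5179 at an unadjusted p and 1937 without siLuc-LNP mouse 1 and CCl4 + siLuc-LNP mouse 4, a pair chosen after seeing the data; leaving out 1 mouse gave 2387 to 3703. For the difference from mice without a particle (1 gene), it was 39 by DESeq2, 7 by limma-voom, 197 with no low-count filter, 0 with filterByExpr, 0 with the replicate block, 0 with only the compared groups, 248 without that pair, 1411 at an unadjusted p and 0 to 247 with 1 mouse left out, where a lone CCl4 mouse is assumed to vary like the other groups. For the difference from siHAS2-LNP (5 genes), it was 67 by DESeq2, 0 by limma-voom, 304 with no low-count filter, 2 with the replicate block, 0 with only the compared groups, 0 without that pair, 1612 at an unadjusted p and 0 to 26 with 1 mouse left out. The causes were not tested. The replicate block gave 2905 genes in the main comparison; libraries with the same number share only that number (correlations of deviations 0.182, 0.185 and -0.0958), and not every library correlated best with its own number.

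Of 108 named genes 101 were called, and 83 of these kept direction and call in all 15 alternatives, while 18 lost the call in at least 1. Direction changed for Lars2 without CCl4 + siLuc-LNP mouse 3 (-0.28, and up to 4.65 with another mouse left out), and for 3 genes that were not called: Ccnd1 (-0.47 by limma-voom, -0.26 without siLuc-LNP mouse 1, -0.34 without CCl4 + siLuc-LNP mouse 4, -0.78 without both, and up to 0.57 with another mouse left out), S100a8 (0.83 by limma-voom, 1.03 without siLuc-LNP mouse 1, 1.11 without both, and down to -0.95) and Hmgcs1 (0.28 without siLuc-LNP mouse 2, 0.01 without CCl4 + siLuc-LNP mouse 3, down to -0.80 with another mouse left out, -1.11 without both and -1.20 by limma-voom). A library of this depth puts 3 counts at 0.117 to 0.165 CPM, which limits folds of genes near 0.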
